A study of Mus musculus with 4 samples.

Results

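The cytosolic heat shock genes and Bag3 form a set of 10 genes, namely Hspa1a, Hspa1b, Hsp90aa1, Hsph1, Dnajb1, Bag3, Hspb1, Hspb7, Hspb8 and Cryab. They were chosen by symbol, as cytosolic chaperones of the kind driven by the heat shock factor HSF1 and as small heat shock proteins of muscle, out of 18193 genes with a probe set of their own on the array. The choice was made with earlier results of these data known. Counts of members beside shares of all genes below are therefore descriptions only. The array carries 25 probe sets annotated to these symbols alone, between 1 and 5 for a gene, and 0 that name a member together with another gene. Tibialis anterior muscle (TA, a fast muscle of the lower leg) and heart were taken from C57BL/6J mice on postnatal day 9, either knockouts for MG56, also called Hhatl, or wild types. The RNA put on a knockout array came from 3 mice, mixed, and that on a wild-type array was mixed too; the sources used here do not say from how many mice, nor how the allele was made. There were thus 4 arrays, namely knockout TA, wild-type TA, knockout heart and wild-type heart, with 1 array for each group. No replicate error can be computed for any value, no p-value is given, and no difference below was tested; the ratios compare pools of RNA and the number of arrays limits their precision.

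Cytosolic chaperones bind unfolded proteins. Hsp70 proteins work in cycles in which J proteins such as Dnajb1 deliver clients and nucleotide exchange factors such as Hsph1 and Bag3 release them, and Hsp90 takes over clients that are near their folded state. Hspa1a and Hspa1b encode the stress-inducible Hsp70, which is scarce in unstressed tissue and is induced by HSF1 together with Dnajb1, Hsph1, Hsp90aa1 and Bag3. The small heat shock proteins hold unfolding proteins without ATP, and in striated muscle Cryab, Hspb1, Hspb7 and Hspb8 are abundant and associate with the Z disc, filamins, desmin and titin. Bag3 joins Hspb8 to Hsp70 and directs damaged filamin to autophagy, and loss of either Bag3 or Hspb7 damages heart muscle in mice.

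HSF1 binds heat shock elements, which are inverted repeats of the unit nGAAn. RefSeq promoters of build GRCm38.p6, each running from 250 bases before to 50 after a transcription start, were found for 8 of the 10 members, in 10 promoters since Hsph1 and Dnajb1 have several starts. They were searched on both strands for pairs of inverted units (GAANNTTC or TTCNNGAA), for triplets (a pair followed, after any 2 bases, by a further inverted unit, so that each triplet holds 2 overlapping pairs) and for the TATAAA and CCAAT boxes. Pairs of units were found in 7 of the 10 promoters, those of 6 of the 8 members, against 15.1% of all 32851 promoters. Triplets were found in 2 of the 10, the overlapping promoters of Hsph1, against 0.603%. Some members were chosen as genes of the kind driven by HSF1, so an excess of such pairs is no independent result. The promoters below are those of the 5 members whose difference between genotypes was most unequal in the 2 tissues, and of Hspb1. Hspb1 differed little between genotypes, and its promoter has 2 such pairs. A relation between the pairs and the differences between genotypes was not tested. Capitals mark the pairs and triplets of units; all are written 5′ to 3′ along the gene's strand.
Hspa1a, chr17:34972107-34972406, minus strand: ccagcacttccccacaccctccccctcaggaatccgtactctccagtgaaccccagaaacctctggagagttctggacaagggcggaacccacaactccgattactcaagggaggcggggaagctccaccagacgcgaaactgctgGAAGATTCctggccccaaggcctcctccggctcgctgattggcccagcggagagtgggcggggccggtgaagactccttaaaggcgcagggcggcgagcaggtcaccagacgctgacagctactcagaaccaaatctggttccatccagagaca
Hspa1b, chr17:34959189-34959488, minus strand: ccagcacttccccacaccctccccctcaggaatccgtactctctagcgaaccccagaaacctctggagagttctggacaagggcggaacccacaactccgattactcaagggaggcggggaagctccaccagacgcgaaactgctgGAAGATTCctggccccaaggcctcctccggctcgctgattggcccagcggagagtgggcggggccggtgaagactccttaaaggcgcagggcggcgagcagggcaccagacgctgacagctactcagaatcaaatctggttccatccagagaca
Hsph1, chr5:149636287-149636586, minus strand: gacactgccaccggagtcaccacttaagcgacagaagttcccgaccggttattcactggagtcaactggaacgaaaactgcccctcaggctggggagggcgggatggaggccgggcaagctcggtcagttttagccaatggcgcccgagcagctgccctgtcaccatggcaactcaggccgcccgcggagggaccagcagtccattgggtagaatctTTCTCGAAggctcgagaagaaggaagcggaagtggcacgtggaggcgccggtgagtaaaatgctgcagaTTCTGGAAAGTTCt
Bag3, chr7:128523333-128523632, plus strand: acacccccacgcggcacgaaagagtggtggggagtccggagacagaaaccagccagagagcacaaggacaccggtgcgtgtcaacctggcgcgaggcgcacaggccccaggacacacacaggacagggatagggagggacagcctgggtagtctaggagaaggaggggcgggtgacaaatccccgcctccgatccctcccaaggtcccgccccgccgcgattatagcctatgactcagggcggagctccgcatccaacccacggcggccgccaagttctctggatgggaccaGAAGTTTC
Hspb8, chr5:116422815-116423114, minus strand: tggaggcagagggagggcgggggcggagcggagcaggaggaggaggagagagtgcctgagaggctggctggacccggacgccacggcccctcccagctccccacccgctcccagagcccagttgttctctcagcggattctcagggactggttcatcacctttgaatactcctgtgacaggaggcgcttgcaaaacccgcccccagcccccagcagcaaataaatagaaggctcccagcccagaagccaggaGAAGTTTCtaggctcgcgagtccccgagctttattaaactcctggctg
Hspb1, chr5:135887669-135887968, plus strand: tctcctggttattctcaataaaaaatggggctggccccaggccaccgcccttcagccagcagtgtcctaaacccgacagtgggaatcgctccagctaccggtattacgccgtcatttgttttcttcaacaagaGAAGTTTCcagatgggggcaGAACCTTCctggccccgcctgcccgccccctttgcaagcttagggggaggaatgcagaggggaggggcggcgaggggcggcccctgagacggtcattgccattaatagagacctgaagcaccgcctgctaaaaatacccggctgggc

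The promoters of Hspa1a and Hspa1b were identical at 296 of 300 bases. With positions counted from 1 at the 5′ end and the base of Hspa1a first, they differed by C44T, T47C, T249G and C276T, all outside the pair of units, which starts 104 bases before the transcription start in both. In Hsph1 a pair lay 33 bases before the start and the triplet began 37 bases after it. The pairs of Bag3 and Hspb8 lay after the start, at bases 43 to 50 and 3 to 10, and both read GAAGTTTC, as did 1 of the pairs of Hspb1, 117 bases before its start. The promoters of Hspb7 and Dnajb1 held no pair in this window. A CCAAT box was found in 5 of the 10 promoters, those of 4 members (Hspa1a, Hspa1b, Hsph1 and Dnajb1), against 37.4% of all promoters. TATAAA was found in 0 of 10 against 13.6%. A match of letters is a description and does not show a bound site.

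Signals are MAS5 intensities on a linear scale in arbitrary units, deposited by the authors, with the 2% trimmed means of the arrays between 496.4 and 496.8. A floor was set at 101.3, the median over all signals of the table. A probe set counted as measured where either array of a comparison reached that floor. All 10 members were measured in every comparison, and 22 of their 25 probe sets were, each with all 4 signals above the floor. The other 3 (2 of Hsp90aa1 and 1 of Cryab) were below it on every array, with signals up to 64.5. A gene with more than 1 probe set is represented by its brightest, judged by the mean of the 4 signals, and the others are given beside it. Genes are counted at 1.5-fold. The targeted gene Hhatl was 5.09-fold lower in knockout TA and 2.40-fold lower in knockout heart on its only probe set. The tissues carried the labelled markers. All 10 skeletal muscle fibre markers were at least 1.5-fold higher in wild-type TA than in wild-type heart, and all 10 cardiac markers lower. Transcripts of the Y chromosome (Eif2s3y, Kdm5d, Uty) were between 1.57-fold and 2.71-fold higher in the knockout pools of both tissues. Xist, a transcript of the X chromosome, was 1.44-fold lower in knockout TA and 1.30-fold lower in knockout heart. The pools thus differ in sex-linked transcripts, and the part of this in the results was not tested.

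**Figure D1:**
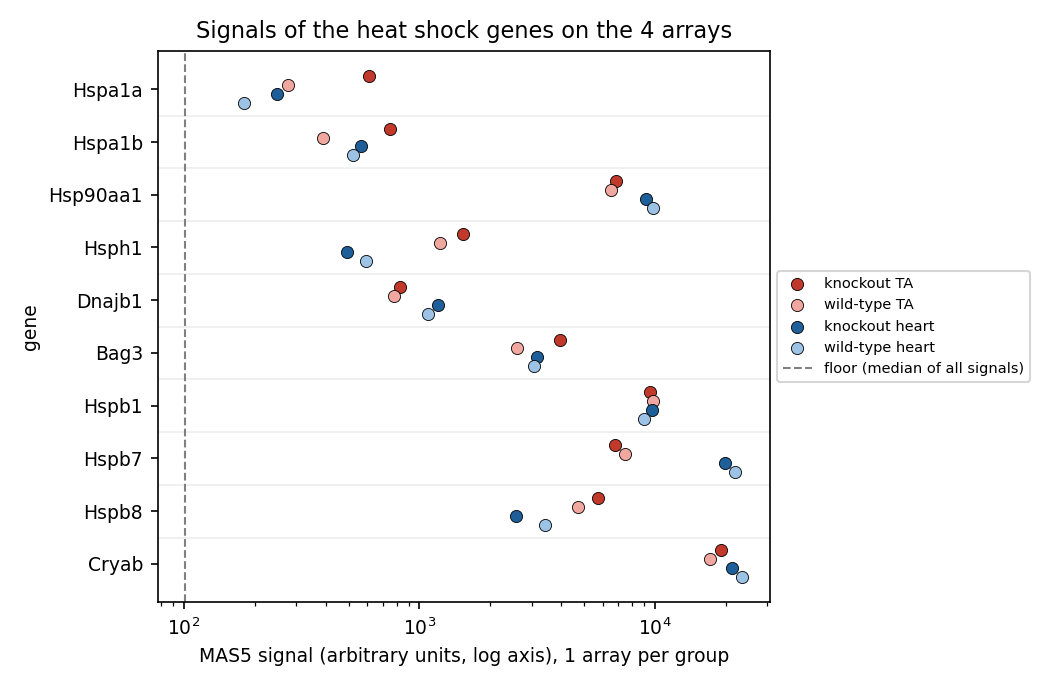
MAS5 signal (horizontal log axis, arbitrary units) of the 10 members on the 4 arrays, each gene on the probe set with the highest mean signal. Each point is 1 array of pooled RNA, and the dashed line is the floor of 101.3. Hspa1a, Hspa1b, Hsph1, Bag3 and Hspb8 have their highest point in knockout TA, and Hspb7 lies well to the right in both hearts.

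In knockout TA the inducible Hsp70 genes Hspa1a and Hspa1b were 2.20-fold and 1.92-fold higher than in wild type, and the cochaperone gene Bag3 was 1.53-fold higher. The other 7 members were within 1.25-fold. Of the 10 members, 3 passed 1.5-fold upwards in knockout TA and 0 downwards, where 4.20% and 4.44% of all 11528 measured genes did. The members were chosen with earlier results known, and Hspa1a and Hspa1b may not be separate counts, so the shares serve for scale only. Among 6990 genes with both TA signals at 4 times the floor or more, 3.26% were higher and 2.46% lower. Hspa1a and Hspa1b were dimmer than that in wild-type TA. The median log2 ratio of the 10 members was 0.22, against -0.01 over all measured genes, and 8 of the 10 lay above 0, as did 48.7% of all genes.

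Hspa1a, which encodes an inducible Hsp70, had a signal of 609.5 in knockout TA, 277.3 in wild-type TA, 249.1 in knockout heart and 180.4 in wild-type heart. The knockout TA array was the highest of the 4 by a wide margin, and within each tissue the knockout was above the wild type. The ratio was 2.20-fold in TA (log2 1.14, rank 77 of the 11528 genes from the top) and 1.38-fold in heart (log2 0.47, rank 576 of 11452). Hspa1b, its neighbour with the same protein function, had 746.7 in knockout TA, 389.2 in wild-type TA, 566.8 in knockout heart and 522.9 in wild-type heart. Its ratio was 1.92-fold in TA (rank 133) and 1.08-fold in heart, so knockout TA again stood highest while the hearts lay close together. All 3 probe sets of Hspa1b gave nearly the same TA ratio, between 0.90 and 0.96 on the log2 scale. In heart they ran from -0.15 to 0.36 and did not share a direction. All 3 were designed to the same transcript accession, and Hspa1a and Hspa1b are near-identical copies, so probe sets of the pair may read each other's transcript and the 2 genes are not independent measurements.

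Dnajb1, the J protein that recruits Hsp70 to clients, had 830.4 in knockout TA, 782.5 in wild-type TA, 1201.0 in knockout heart and 1091.5 in wild-type heart. The genotypes lay close together in each tissue, at 1.06-fold and 1.10-fold. Its other probe set read 627.2, 508.0, 604.3 and 488.9 in the same order, a ratio of 1.23-fold in TA and 1.24-fold in heart. Both probe sets thus placed the knockout above the wild type in both tissues, by less than 1.5-fold and by about as much in each.

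Hsph1, a Hsp110 protein that exchanges the nucleotide of Hsp70, had 1524.4 in knockout TA, 1225.1 in wild-type TA, 491.8 in knockout heart and 593.8 in wild-type heart. The knockout was the higher array in TA (1.24-fold) and the lower array in heart (1.21-fold). The other probe set, with 760.5, 594.7, 297.5 and 366.5, gave 1.28-fold higher in TA and 1.23-fold lower in heart. On both probe sets of Hsph1 the knockout thus lay above wild type in TA and below it in heart, each by less than 1.5-fold.

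Bag3, the cochaperone that links Hsp70 to small heat shock proteins and to autophagy, had 3949.7 in knockout TA, 2585.5 in wild-type TA, 3151.4 in knockout heart and 3060.3 in wild-type heart. Knockout TA was the highest and wild-type TA the lowest of the arrays, with the hearts between them and close together. The ratio was 1.53-fold in TA, just past the 1.5-fold used for counting, and 1.03-fold in heart. Bag3 has 1 probe set, so no other reading of it exists here.

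Hsp90aa1, the inducible cytosolic Hsp90, had 6830.9 in knockout TA, 6481.9 in wild-type TA, 9201.3 in knockout heart and 9842.9 in wild-type heart. Its 3 measured probe sets had TA log2 ratios from -0.03 to 0.09 and heart log2 ratios from -0.10 to 0.11. The genotypes were thus within 1.08-fold of each other on every measured probe set, and the gene separated the arrays by tissue.

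On the probe sets that stand for the genes, the small heat shock proteins differed less between genotypes in TA than Hspa1a and Hspa1b did. In heart they differed less than Hspa1a, and their order beside Hspa1b depended on the probe set. Of the 4 small heat shock proteins, 0 reached 1.5-fold in either tissue on the probe set that stands for the gene. Hspb1 (Hsp27 type), which protects actin filaments, had 9492.1 in knockout TA, 9813.5 in wild-type TA, 9708.2 in knockout heart and 9033.2 in wild-type heart. These 4 signals lay closer together than those of any other member on its brightest probe set, and on its second probe set the knockout TA was 1.05-fold below and the knockout heart 1.13-fold above wild type. Cryab, the alpha-B crystallin that binds desmin and titin, had 19167.6 in knockout TA, 17140.2 in wild-type TA, 21188.7 in knockout heart and 23425.3 in wild-type heart. The knockout was 1.12-fold higher in TA and 1.11-fold lower in heart, and a dimmer probe set gave 1.33-fold higher in TA and 1.03-fold lower in heart.

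Hspb8, the small heat shock protein that works with Bag3, had 5734.5 in knockout TA, 4735.0 in wild-type TA, 2578.5 in knockout heart and 3422.1 in wild-type heart. The knockout was 1.21-fold higher in TA and 1.33-fold lower in heart, and a second probe set gave 1.13-fold higher and 1.22-fold lower. The third probe set of Hspb8, of the type whose probes can match other transcripts, went against both: its signals of 171.1, 405.9, 304.1 and 138.1 put the knockout 2.37-fold under the wild type in TA and 2.20-fold over it in heart. It was the only member probe set past 1.5-fold in heart and the only 1 past 1.5-fold lower in TA, and it was far dimmer than the others of its gene. Hspb7, a filamin-binding protein of heart and muscle, had 6753.4 in knockout TA, 7442.3 in wild-type TA, 19886.3 in knockout heart and 21846.3 in wild-type heart. The knockout was 1.10-fold lower in each tissue there. On the other 2 probe sets it was 1.19-fold and 1.11-fold higher in TA, and 1.19-fold and 1.38-fold lower in heart, so the direction in TA depended on the probe set while all 3 were lower in knockout heart.

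**Figure D2:**
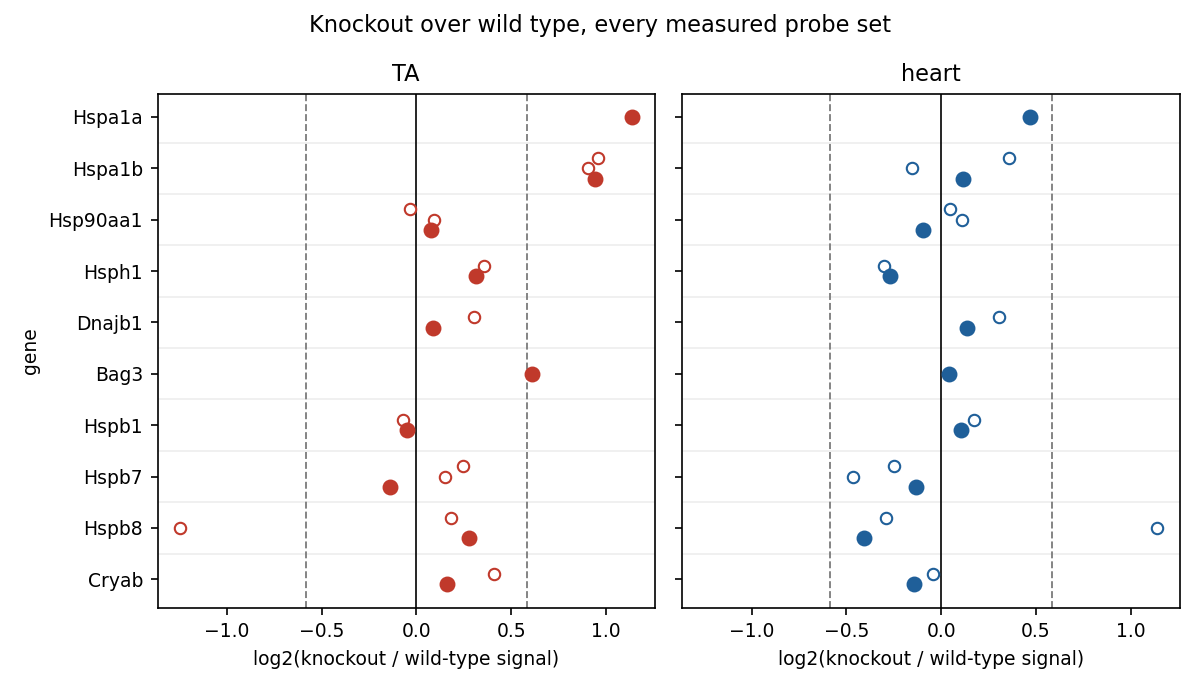
log2 of knockout over wild-type signal for the 22 measured probe sets of the 10 members, in TA (left) and heart (right). Each point is a ratio of 2 arrays; filled points are the probe sets that stand for a gene, open points the others, and dashed lines mark 1.5-fold. In TA the points of Hspa1a, Hspa1b and Bag3 lie beyond the right dashed line, and the outlying open point of Hspb8 lies on opposite sides in the 2 panels.

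In knockout heart 0 of the 10 members passed 1.5-fold upwards and 0 downwards, where 2.67% and 4.19% of the 11452 measured genes did. The median log2 ratio was -0.03, against -0.002 over all genes, and 5 members lay above 0 and 5 below. The extremes were Hspa1a at 0.47 and Hspb8 at -0.41. The set therefore sat near the middle of all genes in heart, with its members spread to both sides.

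The TA ratio minus the heart ratio shows how unequal the genotype differences were. On the log2 scale it was 0.82 for Hspa1b, 0.68 for Hspb8, 0.67 for Hspa1a, 0.59 for Hsph1 and 0.57 for Bag3. Of the 10 members, 4 had a difference of at least 1.5-fold in favour of TA and 0 in favour of heart, where 6.44% and 5.10% of the 10802 genes measured in both tissues did. Among the members, Hsph1 at 1.502-fold lay just inside that limit and Bag3 at 1.48-fold just outside it. Dnajb1, Hspb1 and Hspb7 had differences of -0.05, -0.15 and -0.005, and the median of the 10 was 0.44 against 0.0002 over all genes. Over the 3 probe sets of Hspb7 this difference ran from -0.005 to 0.62. The third probe set of Hspb8 gave -2.39.

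The nearest thing to a repeat on these arrays is the agreement of probe sets of the same gene, which shares the RNA and so leaves out the spread between mice. Over 2327 genes with several probe sets at 4 times the floor or more, the SD of the TA log2 ratio between probe sets of a gene was 0.18. In heart it was 0.17, over 2442 genes, and for the difference between tissues 0.23. Over all measured probe sets these SDs were 0.26, 0.26 and 0.34. The TA log2 ratios of Hspa1a, Hspa1b and Bag3 were over 2 times the SD of 0.26, those of Hsph1 and Hspb8 were above it by little, and those of the other 5 members were below it. The spread between mice cannot be told from pooled RNA.

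Between the tissues of wild-type mice, about as large a share of the members as of all genes was past 1.5-fold. Of the 10, 2 were at least 1.5-fold higher in TA and 2 at least 1.5-fold higher in heart, where 14.5% and 18.0% of the 11872 measured genes were. In bulk tissue a difference in the share of muscle cells and a difference in RNA per cell cannot be told apart. Hspb7 was 2.94-fold lower in wild-type TA than in wild-type heart, and 4.26-fold and 4.38-fold lower on its other probe sets. This was the widest tissue gap of any member and held on all 3 probe sets. In the knockouts the gap was 2.94-fold, 3.02-fold and 2.86-fold on the same probe sets. Hsph1 was 2.06-fold higher in wild-type TA, or 1.62-fold on its other probe set. Hspa1a was 1.54-fold higher in wild-type TA, while the 3 probe sets of Hspa1b ran from 1.34-fold lower to 1.16-fold higher. Hsp90aa1 was between 1.52-fold and 1.55-fold lower in wild-type TA on all 3 measured probe sets, which lies just past the limit.

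The remaining members lay within 1.5-fold between the wild-type tissues on the probe set that stands for the gene. Cryab was 1.37-fold lower in TA, and 1.78-fold lower on its dimmer probe set. Dnajb1 was 1.39-fold lower and Bag3 1.18-fold lower, while Hspb8 was 1.38-fold higher and Hspb1 1.09-fold higher. On its second probe set Hspb8 was 1.33-fold higher, and on its dimmest 2.94-fold higher. The second probe sets of Dnajb1 (1.04-fold higher) and of Hspb1 (1.35-fold higher) show how much such a value rests on the probe set. Over all measured probe sets the SD of this ratio between probe sets of a gene was 0.45 on the log2 scale. That is larger than the size of the log2 ratios of Bag3, Hspa1b and Hspb1, and about that of Cryab, Hspb8 and Dnajb1. The median of the 10 members was -0.33, against -0.07 over all measured genes.

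**Figure D3:**
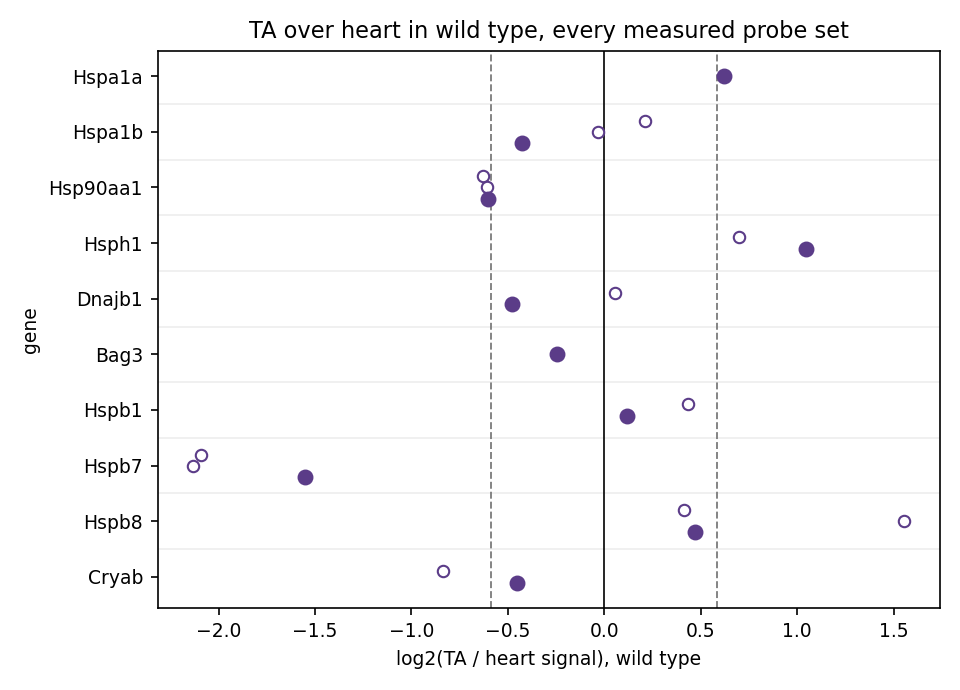
log2 of wild-type TA over wild-type heart signal for the 22 measured probe sets of the members. Each point is a ratio of 2 arrays, filled points stand for the gene, open points are its other probe sets, and dashed lines mark 1.5-fold. The 3 probe sets of Hspb7 lie far to the left, between -2.13 and -1.55, and those of Hsph1 to the right.

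The cytosolic members can be set beside their relatives in other compartments of the cell. In TA the Hsp70 of the endoplasmic reticulum (ER), Hspa5, was 3.85-fold higher in the knockout, and the mitochondrial Hsp70, Hspa9, 1.48-fold. The constitutive cytosolic Hsp70, Hspa8, was 1.07-fold higher, with 22093 in knockout TA and 20685 in wild-type TA. The inducible cytosolic Hsp70 genes, at 2.20-fold and 1.92-fold, lay between those of the ER and the mitochondria. For Hsp90, the ER form Hsp90b1 was 3.56-fold higher, against 1.05-fold for the cytosolic Hsp90aa1 and 1.05-fold for the mitochondrial Trap1. For Hsp110, the ER form Hyou1 was 3.35-fold higher, against 1.24-fold for Hsph1 and 1.21-fold for the constitutive Hspa4. For the J proteins, Dnajb9 and Dnajb11 of the ER were 6.28-fold and 3.16-fold higher, against 1.06-fold for Dnajb1. In each of these families the cytosolic genes had the smaller ratio than the ER genes in TA. Hsp90ab1, the constitutive cytosolic Hsp90, was not analysed here.

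**Figure D4:**
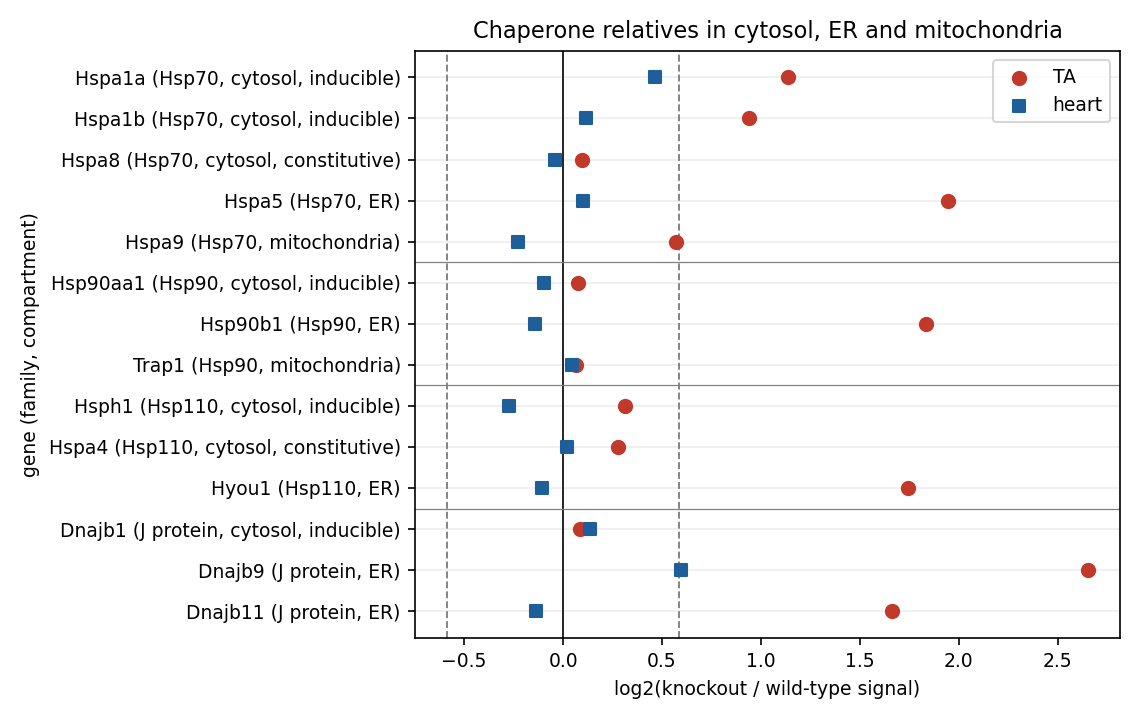
log2 of knockout over wild-type signal of chaperones by family and compartment, in TA (circles) and heart (squares), 1 array a group. Dashed lines mark 1.5-fold. The ER genes lie furthest right in TA, Hspa1a and Hspa1b lie between 0.9 and 1.2, and the other cytosolic genes lie under 0.4.

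In heart these relatives showed no such order. Hspa5 was 1.07-fold and Dnajb9 1.51-fold higher in the knockout. Lower in the knockout were Hsp90b1 (1.10-fold), Hyou1 (1.08-fold) and Dnajb11 (1.10-fold). Hspa9 was 1.17-fold lower and Hspa8 1.03-fold lower. Among the genes of this comparison Hspa1a, at 1.38-fold, had the second highest ratio in heart after Dnajb9.

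The other lists of cytosolic protein folding are set beside all measured genes. In TA 4.20% of all measured genes were at least 1.5-fold higher and 4.44% lower, and in heart 2.67% and 4.19%. In lists this short a count of 0 is near those shares. Of 8 other Hsp70 and Hsp110 genes measured, 0 were 1.5-fold higher or lower in either tissue, with median log2 ratios of 0.10 in TA and -0.11 in heart. Hspa2 was 1.28-fold higher in TA, and Hspa4l 1.48-fold lower in heart. Of 9 other J proteins, 0 reached 1.5-fold in either tissue (medians 0.03 and -0.01), with Dnaja4, itself a heat-inducible gene, 1.37-fold higher and Dnajc7 1.44-fold lower in knockout TA. The 14 measured cochaperones of Hsp90 had medians of -0.07 and -0.03 and 0 past 1.5-fold, with Chordc1 1.39-fold lower in TA and Stip1, which bridges Hsp70 and Hsp90, 1.37-fold lower in heart. Among the other 3 measured small heat shock proteins, all lay lower in the knockout of both tissues, again with 0 past 1.5-fold. Hspb3 was 1.41-fold and 1.37-fold lower and Hspb6 1.26-fold and 1.41-fold lower, in TA and heart, and Hspb2 was 1.14-fold and 1.06-fold lower.

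Of the heat shock factors, Hsf2 had 694.6 in knockout TA, 710.2 in wild-type TA, 375.9 in knockout heart and 333.5 in wild-type heart, so the genotypes lay within 1.13-fold and the tissues 2.13-fold apart in wild type. Hsf4 and Hsf5 were below the floor on every array, and Hsf1 was not analysed here. The HSF-binding protein gene Hsbp1 was 1.04-fold lower in knockout TA and 1.17-fold lower in knockout heart.

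The partners of Bag3 were not uniform. Of 7 BAG and Hsp70 partner genes 0 reached 1.5-fold in either tissue, with a median of 0.20 (TA) and -0.06 (heart) on the log2 scale. Bag1, Bag2, Bag4 and Bag5 were between 1.15-fold and 1.22-fold higher in knockout TA, Bag6 was 1.11-fold lower and the ubiquitin ligase gene Stub1 was 1.04-fold lower. Of 11 genes for clients and partners of Bag3 in autophagy, 1 was at least 1.5-fold higher in TA and 1 lower, where 4.20% and 4.44% of all measured genes were. In so short a list 1 gene each way is close to those shares. The autophagy receptor gene Sqstm1 had 6309.3 in knockout TA and 3076.4 in wild-type TA, 2.05-fold higher, and was 1.46-fold higher in knockout heart. The actin-capping gene Capzb was 1.60-fold lower in TA and 1.30-fold lower in heart. Filamin C (Flnc), the muscle client of Bag3, was, on a probe set that can match other transcripts, 1.35-fold higher in TA and 1.31-fold lower in heart, the directions that Hsph1 and Hspb8 also had. Synpo2, which joins Bag3 to membranes of the forming autophagosome, was 1.28-fold lower in TA and 1.04-fold lower in heart, and was 11.5-fold higher in wild-type TA than in heart.

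Some leukocyte markers and some immediate early genes, which respond within minutes to stress or handling, were higher in the knockout pools of both tissues. The median log2 ratio of the immediate early genes was 0.37 in TA and 0.31 in heart, with 8 of 9 and 7 of 8 above 0. For the leukocyte markers it was 0.28 and 0.25, with 5 of 5 above 0 in each tissue. Of 9 measured immediate early genes, 3 were at least 1.5-fold higher in knockout TA and 0 lower, where 4.20% and 4.44% of all measured genes were. Atf3 was 2.94-fold, Fos 2.57-fold and Btg2 1.84-fold higher, while Jun was 1.29-fold higher and Egr1 1.12-fold lower. In heart 1 of 8 was higher, Btg2 at 1.55-fold, where 2.67% of all measured genes were. Dusp1 and Zfp36 were 1.48-fold and 1.45-fold higher in knockout heart, and 1.25-fold and 1.47-fold higher in knockout TA. The list summed to a signal of 8543.3 in knockout heart and 6869.9 in wild-type heart, against 9447.3 and 6266.3 in TA. Of 5 leukocyte markers 2 were at least 1.5-fold higher in knockout TA, S100a8 at 5.26-fold and S100a9 at least 1.94-fold, while Ptprc was 1.13-fold higher. In heart 1 of 5 was, S100a9 at 1.61-fold. The shares of all measured genes given above apply to these counts too. Their summed signal was 4269.1 in knockout TA and 3047.7 in wild-type TA, and 3425.3 and 3005.8 in the hearts. The part of either list in the heat shock results was not tested. The summed signal of the 10 skeletal fibre markers was 338196 in knockout TA and 381466 in wild-type TA, and 0 of them reached 1.5-fold. Of the measured markers of endothelium, fibroblasts, smooth muscle and red blood cells, 0 reached 1.5-fold in either tissue. Of the cardiac markers 1 did in TA, Myl4 at 1.87-fold higher, and of the fat markers 1 did in heart, Ucp1 at least 3.24-fold lower; in heart the skeletal marker Casq1 was 2.73-fold lower.

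Genes with the most similar course over the 4 arrays were found by the Euclidean distance between log2 signals centred on their mean, among 10160 genes with all signals above the floor. The distance covers 4 arrays only and is a description. For Hspa1a the nearest were the deubiquitinase gene Otud1 (distance 0.13), Frs3 (0.18) and St3gal6 (0.22). For Hspa1b they were Zfp646 (0.07), Gclm, a subunit gene of glutathione synthesis (0.09), and the stress response gene Ppp1r15a (0.12). For Bag3 they were Sec11a, a subunit gene of the ER signal peptidase (0.04), Vps37d (0.05) and Copa, a coat gene of vesicles of the Golgi (0.06). For Hsph1 they were D930003E18Rik (0.08), Lmna (0.14) and Gpt2 (0.14), for Hspb8 Gm15706 (0.05), Nop16 (0.08) and Hspb11 (0.08), and for Hspb7 Rock1 (0.05), Cox20 (0.06) and Psme1 (0.06). The nearest genes of Hsp90aa1, Dnajb1, Hspb1 and Cryab lay within 0.04. None of the members was among the 3 nearest genes of another member.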

How the data were processed

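The authors deposited MAS5 signal intensities, 1 per probe set and array on a linear scale, per the submitters' processing notes; no source used here states its version, its scaling target or any detection call. The table holds 45037 probe sets and 0 control probe sets, so no RNA quality ratio from control probe sets was computed. Symbols came from the platform's annotation table (34945 probe sets with 1 symbol, 932 with several, 9160 with none), and only probe sets with 1 symbol were used. Among the named genes, Hspa8, Hyou1, Flnc, Tuba1a, Hspe1 and S100a8, and perhaps others, stand on probe sets whose probes can match other transcripts. Signals under 101.3, the median of all signals, were raised to it before log2 ratios were taken, and a gene was measured if at least 1 array compared reached it. No recentring was applied, since the median log2 ratio of measured genes was -0.01 in TA, -0.002 in heart and -0.07 between wild-type tissues. With 1 array a group no test was run. Named were all members, their relatives in other compartments, up to 3 genes of a list past 1.5-fold, Hhatl, Hsf1, Hsf2 and Stub1; other list genes under 1.5-fold, and the sex-linked genes, were named after their values were seen. The members and lists were chosen with earlier results of these data known. Promoters are from RefSeq (GRCm38.p6). The 8 alternatives were 3 other floors, quantile normalization, centring, and 3 other rules for several probe sets. The computation was tested on simulated arrays. Python 3.11.15, numpy 2.4.6 and pandas 2.3.3 were used.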

Additional observations from a re-analysis of the deposited data

Results flagged for a closer look

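Of the members, 2 had knockout ratios on opposite sides of 0 in the 2 tissues, by at least 1.2-fold each way. For Hsph1 the log2 ratios of the tissues lay 0.59 apart (TA minus heart), with the knockout 1.24-fold higher in TA and 1.21-fold lower in heart, and its other probe set gave 0.66. For Hspb8 it was 0.68, with the knockout 1.21-fold higher in TA and 1.33-fold lower in heart. Its second probe set gave 0.47 and its dimmest, -2.39. With 1 array a group the differences between the tissues were not tested.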

How the results depend on the processing

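Of 317 log2 ratios of single members recomputed under the 8 alternatives, 311 kept their side of 1.5-fold, 4 no longer passed it, 2 newly passed it, and 0 of those past it changed sign. Of those under 1.5-fold, 5 changed sign. As the median over probe sets, Hspb7 in TA went from -0.14 to 0.15, Hsp90aa1 in heart from -0.10 to 0.05, and the differences between tissues from 0.17 to -0.02 (Hsp90aa1) and from -0.005 to 0.50 (Hspb7), the last being 0.02 with centring. A lower floor and no floor could change no member ratio, since the signals used lay above the main floor. Leaving out probe sets that can match other transcripts could not either, since none of them stands for a member. Taking the brightest probe set in the arrays compared returned the main value for every member. The 311 thus include many ratios that were no check of the main values. With the floor at the 75th percentile of all signals, the Hspa1a ratio in TA was 0.37 and no longer past 1.5-fold. That floor lies above the other signals of Hspa1a, so it was not measured in heart, between wild-type tissues or for the difference between tissues. The 317 leave these values out, though its main log2 ratios of 0.62 between wild-type tissues and 0.67 for the difference were past 1.5-fold. Of the 9 members then measured, 1 was at least 1.5-fold higher in wild-type TA than in heart, and 2 had a difference between tissues of at least 1.5-fold. With centred ratios 1 member was at least 1.5-fold lower in wild-type TA than in heart, since Hsp90aa1 had -0.53 and no longer passed that limit. As the median over probe sets, Cryab was lower in wild-type TA by more than 1.5-fold, with a log2 ratio of -0.64. The count of members higher in knockout TA ran from 2 to 3, that for the difference between tissues from 2 to 5, and those in knockout heart were 0 each way in every alternative. The median log2 ratio of the members ran from 0.22 to 0.24 in TA, from -0.10 to 0.04 in heart, from -0.33 to -0.12 between wild-type tissues and from 0.31 to 0.48 for the difference between tissues. The difference of Bag3 was 0.59 with centring and so past 1.5-fold, and that of Hspb8 was 0.47 as the median over its probe sets. No paired analysis was possible because each group has 1 array. Signals near the floor limit what can be read of Hspa1a and Hspa1b more than of the other members.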

Other observations

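For the cytosolic chaperonin, a barrel that folds actin and tubulin, and prefoldin, which delivers them, 14 genes were measured. Of these 0 reached 1.5-fold in either tissue, a count near the shares of all genes in so short a list. Their median log2 ratios were -0.09 in TA and -0.12 in heart. Of the 14, 4 in TA and 1 in heart lay above 0, as did 48.7% and 49.7% of all measured genes. Pfdn1 was 1.43-fold lower in knockout TA and Pfdn2 1.45-fold lower in knockout heart. In wild type, Pfdn1 and Pfdn4 were 2.46-fold and 2.03-fold higher in TA than in heart. Among the cytoskeletal clients of the small heat shock proteins, the tubulin genes Tubb5 and Tuba1a were 1.32-fold and 1.31-fold lower in knockout TA and 1.45-fold and 1.34-fold lower in knockout heart. The probe set of Tuba1a can match other transcripts. Desmin (Des) was 1.07-fold and 1.06-fold higher in TA and heart, and titin (Ttn) had log2 ratios of -0.23 in TA and 0.14 in heart.

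Mitochondrial chaperones and proteases had a median log2 ratio of 0.16 in TA and -0.17 in heart. Of these, 0 of 9 reached 1.5-fold in either tissue, again near the shares of all genes in so short a list. The chaperonin genes Hspd1 and Hspe1 were 1.12-fold and 1.13-fold higher in knockout TA, and in heart their log2 ratios were -0.17 and -0.26. The mitochondrial J protein gene Dnaja3 was 1.35-fold higher in TA and 1.14-fold lower in heart. Of the 9, 2 had a TA ratio at least 1.5-fold above the heart ratio, Hspa9 at 1.74-fold and Dnaja3 at 1.55-fold, where 6.44% of all genes did.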
